A study of Mus musculus with 6 samples.

Results

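The BCL-2 family sets whether a cell under stress keeps its mitochondria intact. Its 10 genes described here were taken by symbol: the anti-apoptotic genes Bcl2, Bcl2l1, Bcl2l2 and Mcl1, the effectors Bax and Bak1, and the BH3-only genes Bbc3, Pmaip1, Bcl2l11 and Bid. All 10 were among the 35869 genes listed in every library. Transcript levels came from RNA sequencing of mouse acute myeloid leukaemia cells carrying retroviral MLL-AF9, a fusion gene that drives human leukaemia. The 3 knockout (KO) libraries are from cells given B-estradiol, and the 3 control (WT) libraries from cells given the ethanol vehicle, all lysed at 48 hours. Both groups carried floxed Chaf1b, which encodes a subunit of the CAF-1 chromatin assembly complex, and CreERT2, a recombinase that an oestrogen receptor ligand activates. The WT cells are therefore floxed cells without induction, and the deletion cannot be told apart from the ligand. The labels do not say whether replicates were separate cultures or clones, so the p-values cover only how these samples varied, which could be technical variation. KO replicate 1 and WT replicate 1 stood apart from the rest of their groups, and the column name of WT replicate 1, alone among the 6, includes the word replace, whose meaning there the labels do not give. Over the tested genes, which are not independent replicates, KO replicates 2 and 3 correlated at a Pearson r of 0.998 on the log2(TPM + 1) scale, as did WT replicates 2 and 3 at 0.998, against 0.991 and 0.992 for KO replicate 1 and 0.984 and 0.986 for WT replicate 1 with the others of their group. Across the groups, KO replicate 1 correlated with WT replicates 1, 2 and 3 at 0.982, 0.984 and 0.986. KO replicates 2 and 3 correlated with the WT libraries at 0.961 to 0.967.

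The anti-apoptotic proteins of this family sit on the outer mitochondrial membrane and hold the effectors BAX and BAK in check. BH3-only proteins are made or released under stress, occupy the groove of the anti-apoptotic proteins and in some cases activate the effectors directly, after which the membrane becomes permeable, cytochrome c leaves and caspases are switched on. Myeloid cells and their leukaemias are known to depend on MCL1 and BCL2, and inhibitors of BCL2 are used against acute myeloid leukaemia. The files give RNA per gene, so they say nothing of protein stability, of binding between family members or of splice forms such as the long and short forms of Bcl2l1 and Mcl1.

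Bcl2 fell to 71.5% of its WT mean and Bcl2l2 rose to 120% of its WT mean. No other member passed the test, so 2 of 10 were called (20.0%), against 19.0% of all 13575 genes tested, a share near the background. Of all genes, 12.9% were called higher and 6.11% lower (1745 and 830), a split that was 1346 higher and 1722 lower under quantile normalization and 3859 and 3710 without KO replicate 1 and WT replicate 1. All 10 members passed the filter on low values, at least 1 TPM in at least 3 libraries. TPM divides reads by transcript length and by the library total. Comparing levels of different genes rests on those lengths, and the sources used here do not state how TPM was derived. A call is an adjusted p under 0.05 in limma, fitted on log2(TPM + 1) across all tested genes with Benjamini-Hochberg adjustment. Values of the single libraries are given in the order of replicates 1, 2 and 3. Every log2 fold change below is KO minus WT on that scale, where changes of weakly expressed genes are understated.

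The promoters of the called genes, Bcl2 and Bcl2l2, are shown first, a choice that rests on those calls alone. The sequences are those of RefSeq on GRCm38.p6, the assembly that mm10 names. Each is printed 5′ to 3′ along the gene's strand and ends where the first annotated exon begins, with capitals marking the GC box GGGCGG on either strand. The Bcl2 stretch is chr1:106714291-106714540, minus strand, and the Bcl2l2 stretch is chr14:54883175-54883365, plus strand.
Bcl2: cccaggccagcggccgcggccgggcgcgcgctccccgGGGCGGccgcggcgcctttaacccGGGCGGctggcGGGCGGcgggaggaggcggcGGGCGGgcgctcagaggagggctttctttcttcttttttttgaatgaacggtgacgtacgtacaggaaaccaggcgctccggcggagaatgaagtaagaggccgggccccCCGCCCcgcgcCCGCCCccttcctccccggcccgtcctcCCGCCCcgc
Bcl2l2: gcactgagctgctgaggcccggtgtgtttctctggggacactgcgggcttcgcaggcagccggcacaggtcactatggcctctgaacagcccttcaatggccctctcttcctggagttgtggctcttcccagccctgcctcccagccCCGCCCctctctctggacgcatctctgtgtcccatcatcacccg
The Bcl2 stretch of 250 bases held 7 GC boxes and the Bcl2l2 stretch of 191 bases held 1. Neither held CCAAT, the E-box CACGTG of MYC and MAX, the AP-1 motif TGANTCA, the STAT motif TTCNNNGAA or the p53 decamer, all searched on both strands without shared positions between motifs being removed. Of the 14 promoter entries that matched 9 of the members, 10 held a GC box in the 250 bases before the start. Those 10 came from 7 members. Among the 32851 promoter windows of that length, 32.7% held a GC box. Bbc3, Bcl2l1 and Bcl2l11 had several entries each, which are not independent. Some entries, such as that of Mcl1, lie within the annotated gene. The p53 decamer was present in 1 of the 14 entries, that of Bax, against 7.13% of all windows. These matches describe letters only, and gene-level TPM does not show which start site was used.

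Mcl1, which encodes the short-lived survival protein that granulocyte precursors need (chromosome 3, 95656944 to 95663179), was the most abundant anti-apoptotic transcript. It was at 177.5, 185.1 and 171.0 TPM in the KO libraries, against 196.5, 148.1 and 157.9 TPM in the WT libraries. The highest of the 6 values belonged to WT replicate 1, and the KO values lay above those of the other two WT libraries. With all libraries it differed by 0.10 on the log2 scale (SE 0.11, limma adjusted p = 0.55). Without WT replicate 1 it was 0.22 and passed the test (adjusted p = 0.033), without WT replicate 2 it was 0.01 (adjusted p = 0.95), and the adjusted p ranged from 0.033 to 0.95 over the 16 alternatives.

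Bcl2, the founding survival gene of the family (chromosome 1, 106538176 to 106714290), was the member with the largest fall. It was at 10.1, 7.6 and 8.1 TPM in the KO libraries, against 11.4, 12.9 and 11.8 TPM in the WT libraries. The groups did not overlap, and KO replicate 1 lay nearest to WT. Its mean was 8.60 ± 1.32 TPM in KO and 12.0 ± 0.78 TPM in WT (SD, n = 3 each), and it fell by 0.45 on the log2 scale (SE 0.11, limma adjusted p = 0.040). An antisense gene model that the files do not list shares 6.09% of its exon bases in GENCODE M21. In bulk RNA, fewer cells of a type and less RNA per cell cannot be told apart. The call was lost without KO replicate 2 or 3 (adjusted p = 0.15 and 0.16), without WT replicate 2 or 3 (0.12 and 0.11) and without the filter on low values (0.055), while the fall stayed between 0.37 and 0.56 whichever library was left out.

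Bcl2l1, which encodes BCL-XL, a survival protein prominent in erythroid cells and platelets (chromosome 2, 152758732 to 152833803), lay the other way. It was at 10.9, 13.6 and 12.9 TPM in the KO libraries, against 11, 8.6 and 8.5 TPM in the WT libraries. The overlap came from the replicates numbered 1 alone, which were nearly equal. The log2 fold change of 0.38 (SE 0.12) did not pass (limma adjusted p = 0.075). It passed without WT replicate 1 (0.49, adjusted p = 0.024), without KO replicate 1 (0.47, adjusted p = 0.048) and without both (0.58, adjusted p = 0.0024). Over all genes, 4850, 3682 and 7569 were called in these fits, against 2575 with all libraries. Bcl2l1 did not pass in the other 13 of the 16 alternatives. Its adjusted p was 0.24 and 0.23 without KO replicates 2 and 3, and 0.20 and 0.21 without WT replicates 2 and 3.

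Bcl2l2, which encodes BCL-W, a survival protein best known from testis (chromosome 14, 54883366 to 54890858), was the member called higher. It was at 14.9, 15 and 14.1 TPM in the KO libraries, against 12.9, 11.8 and 11.9 TPM in the WT libraries. Every KO value was above every WT value, with means of 14.7 ± 0.49 TPM in KO and 12.2 ± 0.61 TPM in WT (SD, n = 3 each). It rose by 0.25 on the log2 scale (SE 0.06, limma adjusted p = 0.041). The call was lost under quantile normalization (0.18, adjusted p = 0.061), and without each of the KO replicates in number order (0.063, 0.16 and 0.13) and of WT replicates 2 and 3 (0.14 for each). In GENCODE M21, 13.3% of its exon bases are shared with a gene model on the same strand that the files do not list, so reads of that model could be counted here.

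**Figure D1:**
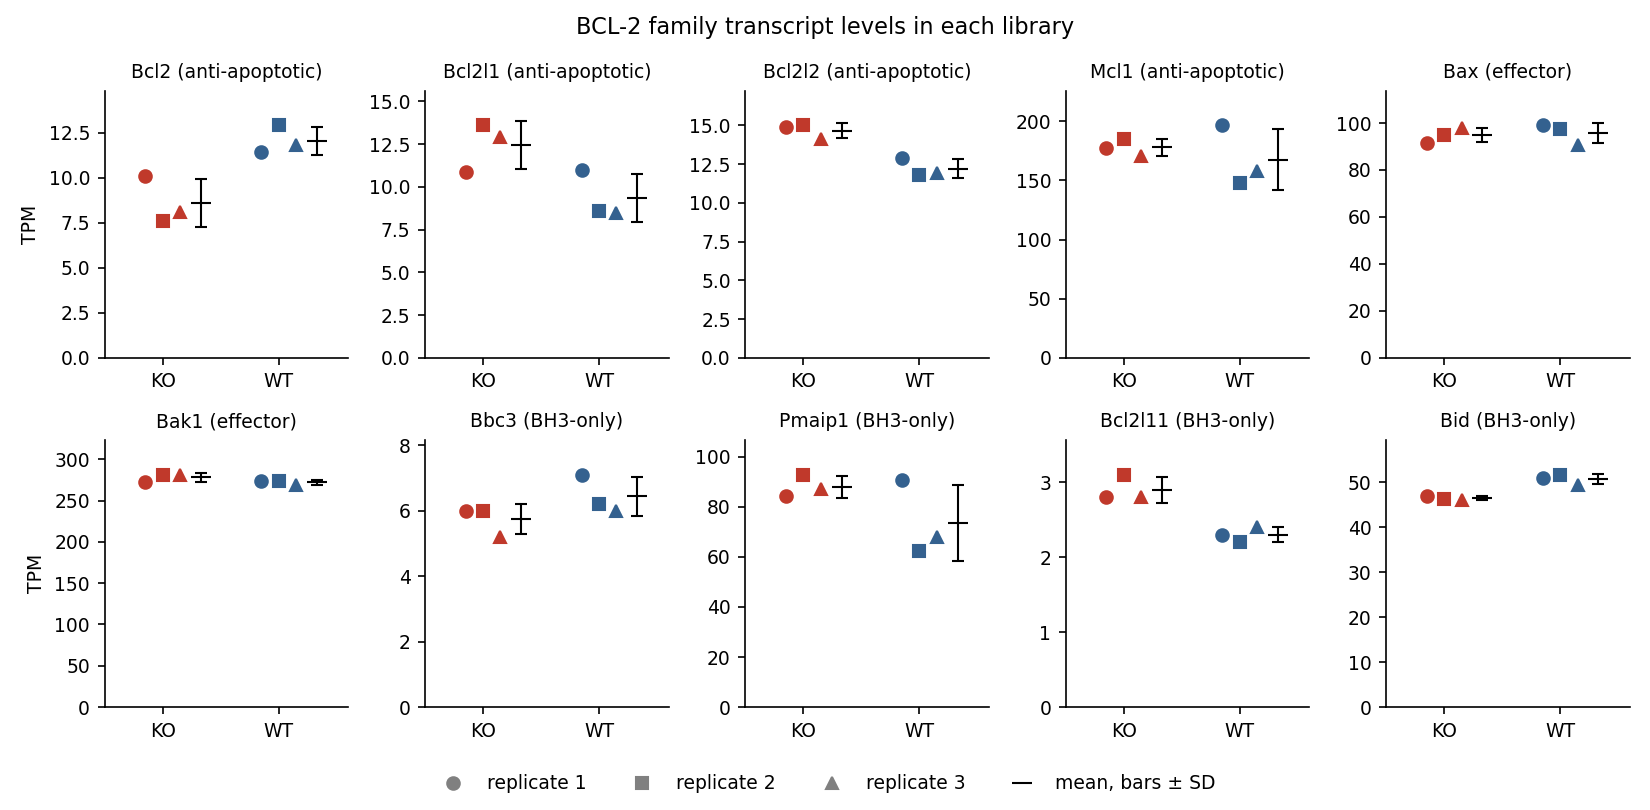
Transcript level in TPM (vertical axes, each from 0) of the 10 BCL-2 family genes in every KO library (red, left) and WT library (blue, right); marker shape gives the replicate number and the black bar the mean ± SD of 3 libraries. The groups separate for Bcl2, Bcl2l2, Bcl2l11 and Bid, and WT replicate 1 is the highest library for Mcl1.

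The effectors, which form the pores in the outer mitochondrial membrane, were the members least different between the groups. Bak1 (chromosome 17, 27019812 to 27028627), whose protein resides on the mitochondrion, was the most abundant of the 10, and 5.31% of tested genes had a higher mean. It was at 272.2, 281.4 and 280.6 TPM in the KO libraries, against 274.0, 273.3 and 268.8 TPM in the WT libraries. The groups overlapped, with a log2 fold change of 0.03 and a 95% interval from -0.06 to 0.12 (limma adjusted p = 0.57). Bax (chromosome 7, 45461695 to 45466903), whose protein moves to the mitochondrion on activation, was at 91.7, 94.9 and 98.0 TPM in the KO libraries, against 99.0, 97.6 and 90.8 TPM in the WT libraries. Its log2 fold change was -0.01, with an interval from -0.14 to 0.12 (adjusted p = 0.88), and its sign turned under quantile normalization and when single libraries were left out. A same-strand gene model that the files do not list shares 12.2% of its exon bases in GENCODE M21. On the opposite strand, Ggnbp1 shares 25.5% of the exon bases of Bak1. Its own mean level was 8.20 TPM in KO and 7.50 TPM in WT. The sources used here do not state whether counting used strand.

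Among the BH3-only genes 0 of 4 passed the limma test, 2 of them had an unadjusted p under 0.05 (Bcl2l11 and Bid), against 38.0% of all tested genes, and the 4 lay in both directions. Pmaip1, which encodes NOXA, a protein that binds MCL1 (chromosome 18, 66458604 to 66465558), was at 84.2, 92.9 and 87.2 TPM in the KO libraries. In the WT libraries it was at 90.6, 62.3 and 67.8 TPM. WT replicate 1 lay among the KO libraries, whereas for Mcl1 it lay above them. As for Mcl1, WT replicates 2 and 3 lay below all KO libraries. With all libraries it differed by 0.27 on the log2 scale (SE 0.14, limma adjusted p = 0.20), without WT replicate 1 it was 0.43 and passed (adjusted p = 0.019), and without WT replicate 2 it was 0.17 (adjusted p = 0.44).

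Bcl2l11, which encodes BIM, a direct activator of the effectors that cytokine withdrawal induces (chromosome 2, 128126038 to 128162547), was the weakest member. It was at 2.8, 3.1 and 2.8 TPM in the KO libraries, against 2.3, 2.2 and 2.4 TPM in the WT libraries. The KO libraries all lay above the WT libraries, on values deposited to 1 decimal. The log2 fold change of 0.24 (SE 0.08) did not pass (limma adjusted p = 0.072), and under quantile normalization it was -0.06 (adjusted p = 0.61). It passed without KO replicate 1 and WT replicate 1 together (0.26, adjusted p = 0.040) and with eBayes run without a mean-variance trend (adjusted p = 0.044).

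Bid, the BH3-only gene whose product caspase 8 cleaves to link death receptors to mitochondria (chromosome 6, 120893119 to 120917062), lay lower in KO. It was at 46.9, 46.2 and 46.1 TPM in the KO libraries, against 50.9, 51.7 and 49.4 TPM in the WT libraries. The groups were tight and did not overlap, but the log2 fold change of -0.12 (SE 0.04) did not pass (limma adjusted p = 0.095). Bcl2l13, on the opposite strand, shares 17.7% of the exon bases of Bid, so both values are uncertain if reads were counted without strand. Bbc3, which encodes PUMA, the BH3-only protein that p53 induces (chromosome 7, 16308398 to 16318334), was at 6.0, 6.0 and 5.2 TPM in the KO libraries. Its WT values overlapped these at 7.1, 6.2 and 6.0 TPM, and the difference of -0.14 on the log2 scale did not pass (SE 0.09, limma adjusted p = 0.29).

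In all, KO and WT libraries did not overlap for 4 of the 10 members, against 42.8% of all tested genes. Bcl2l2 and Bcl2l11 lay above WT, as did 23.4% of all genes, and Bcl2 and Bid lay below, as did 19.5%. The median log2 fold change of the 10 was 0.06, with 6 positive and 4 negative, and that of all tested genes was 0.01. Without WT replicate 1, the calls were Bcl2l1, Bcl2l2, Mcl1 and Pmaip1 higher and Bcl2 lower, 5 of 10 against 35.7% of all genes. Without KO replicate 1 and WT replicate 1 together, Bcl2l11 joined those higher and Bid those lower, 7 of 10 against 55.8% of all genes. Bax, Bak1 and Bbc3 were not called in these or in any of the other alternatives run. Without KO replicate 2, KO replicate 3, WT replicate 2 or WT replicate 3, none of the 10 was called by limma, where 0.803%, 0%, 0.184% and 0.110% of all genes were called. In these fits 2, 3, 2 and 3 members had an unadjusted p under 0.05, against 23.7%, 24.9%, 28.2% and 28.6% of all genes.

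**Figure D2:**
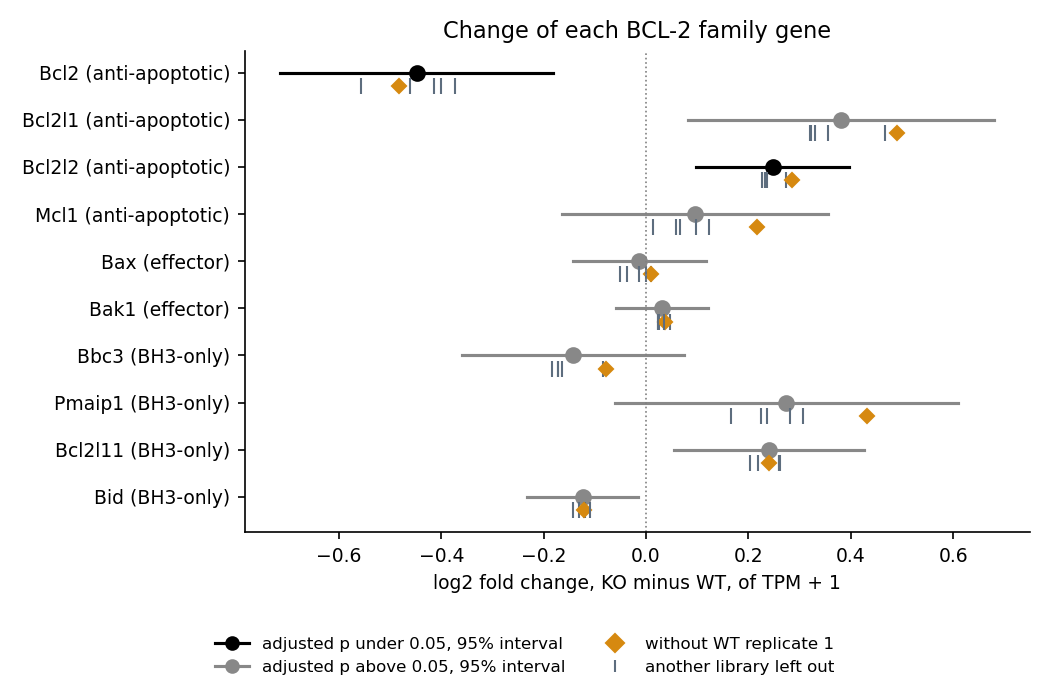
Log2 fold change, KO minus WT, of TPM + 1 (horizontal axis) for each of the 10 genes, with its 95% interval (black where the adjusted p is under 0.05, grey otherwise) and, beneath it, the value when a single library was left out. Bcl2 at -0.45 and Bcl2l2 at 0.25 are called, and leaving out WT replicate 1 (diamonds) moves Mcl1 to 0.22 and Pmaip1 to 0.43.

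Chaf1b itself ranged from 14.2 to 17.7 TPM in KO, against 48.6 to 50.6 TPM in WT. Of 12 markers of the labelled myeloid leukaemia identity, all were detected, from Ptprc and Kit to Elane, with Csf1r at 0.4 to 1.4 TPM. Among the 11 tested, 5 were higher and 1 lower in KO (limma). Over all tested genes 12.9% were called higher and 6.11% lower, which is also the background for the marker counts below. Some markers of more mature myeloid cells differed between the groups, and others stood out in WT replicate 1. The 12 late granulocyte markers summed to 686 to 1548 TPM in KO and 119 to 489 TPM in WT, with WT replicate 1 at the top of the WT range. Of the 9 tested, 5 were higher and 0 lower in KO (limma), and 4 of 7 monocyte and macrophage markers were higher and 0 lower. In WT replicate 1 the 5 called late granulocyte markers were at 1.11 (Camp), 1.18 (S100a8), 1.20 (Cd177), 1.72 (S100a9) and 3.83 (Lcn2) times the mean of WT replicates 2 and 3. The tested ones not called were at 47.6 (Cxcr2), 25.3 (Ly6g), 16.6 (Mmp9) and 6.07 (Ngp) times that mean. Mmp9 had a lower mean in KO, at 1.77 TPM against 5.57 TPM in WT. Erythroid markers summed to 22.2 to 34.5 TPM in KO and 12.8 to 21.3 TPM in WT (2 of 5 tested higher), megakaryocyte markers to 24.5 to 51.3 TPM in KO and 7.20 to 14.3 TPM in WT (2 of 3 higher), and stromal and endothelial markers to 67.0 to 72.4 TPM in KO and 62.3 to 80.2 TPM in WT (1 of 3 higher). Most of the stromal and endothelial sum was Pecam1, at 60.8 to 79.1 TPM, and no other marker of that list exceeded 2.8 TPM in any library. Cd79a and Cd79b made 2 of 2 tested B cell markers higher, while Ms4a1 and Ebf1 were listed at 0 in every library, as were Cd8a, Cd4 and Ncr1 of T and NK cells. The part of these cell states in the values of Mcl1, Pmaip1, Bcl2 and Bcl2l1 was not tested.

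Set side by side, the members spanned about the same range in both groups. In KO the order by mean TPM was Bak1, Mcl1, Bax, Pmaip1, Bid, Bcl2l2, Bcl2l1, Bcl2, Bbc3 and Bcl2l11, from 278 ± 5.10 to 2.90 ± 0.17 TPM (SD, n = 3). Bax and Pmaip1 were the neighbours whose KO ranges overlapped. In WT the order differed in the placing of Bcl2 before Bcl2l1, and Bcl2l2 and Bcl2, at 12.2 ± 0.61 and 12.0 ± 0.78 TPM (SD, n = 3), were the neighbours whose WT ranges overlapped. Bcl2 was thus the lowest anti-apoptotic gene in KO and Bcl2l1 the lowest in WT.

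The summed anti-apoptotic level was compared with that of the effectors and BH3-only genes as a measure of balance, with no test. The 4 anti-apoptotic genes summed to 213.4, 221.3 and 206.1 TPM in the KO libraries, against 231.8, 181.4 and 190.1 TPM in the WT libraries. The effectors summed to 364 to 379 TPM in KO and 360 to 373 TPM in WT, and the BH3-only genes to 140 to 148 TPM in KO and 122 to 151 TPM in WT. All 3 sums overlapped between the groups. The anti-apoptotic sum was 0.42, 0.42 and 0.40 times the sum of effectors and BH3-only genes in the KO libraries, and 0.44, 0.37 and 0.39 times in the WT libraries. The means were 0.414 ± 0.015 in KO and 0.401 ± 0.038 in WT (SD, n = 3 each), a difference of 0.013 that is smaller than the SD of either group. Without WT replicate 1 the WT mean was 0.380 and lay below all KO libraries, and without WT replicate 2 it was 0.417, above the KO mean. Against the BH3-only genes alone the ratio was 1.49 ± 0.03 in KO and 1.51 ± 0.03 in WT (SD, n = 3 each), also with overlap.

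**Figure D3:**
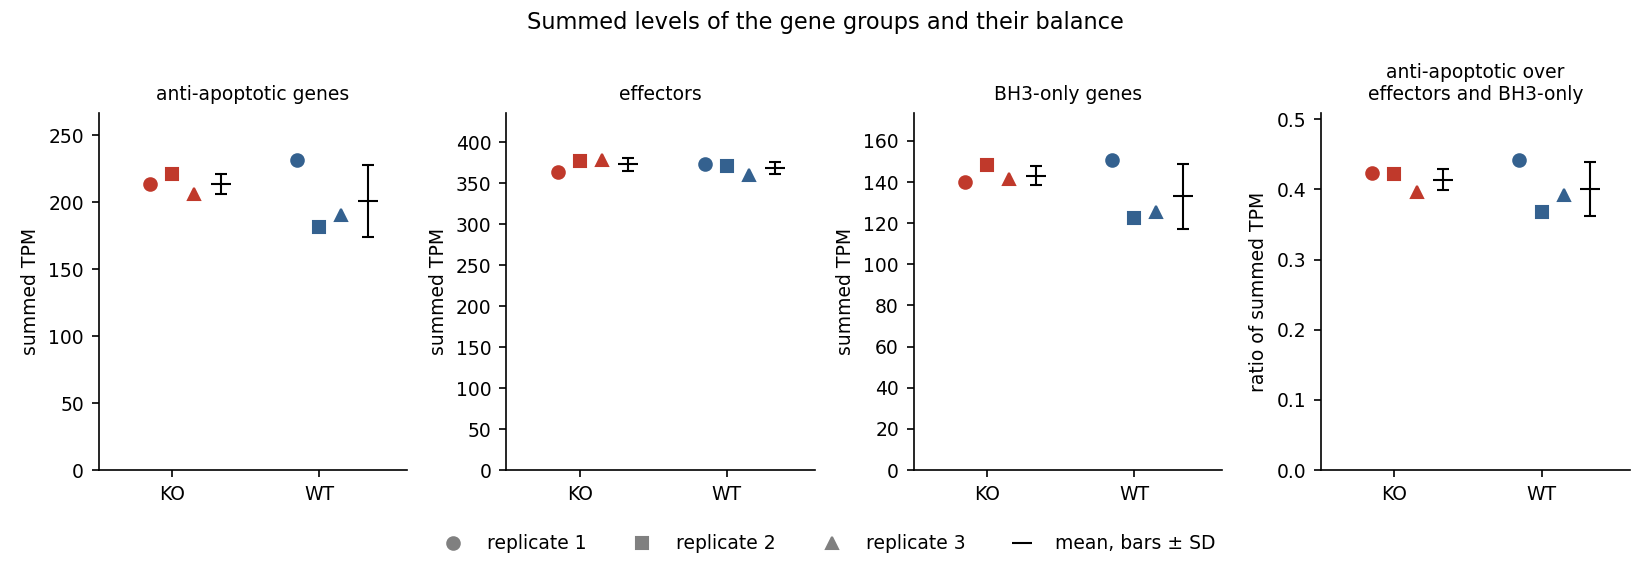
Summed TPM of the anti-apoptotic, effector and BH3-only genes and the ratio of the first to the other two (vertical axes from 0) in each KO library (red, left) and WT library (blue, right), with mean ± SD of 3 libraries. KO and WT overlap in all 4 panels, and WT replicate 1 is the highest WT library in each of them.

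The anti-apoptotic sum rested on Mcl1, which made up 83.3 ± 0.34% of it in KO and 83.2 ± 1.57% in WT (SD, n = 3 each). The shares below Mcl1 are given with no test. The share of Bcl2 was 4.73%, 3.43% and 3.93% in the KO libraries, against 4.92%, 7.11% and 6.21% in the WT libraries. The share of Bcl2l1 was 5.11%, 6.15% and 6.26% in the KO libraries, against 4.75%, 4.74% and 4.47% in the WT libraries. The share of Bcl2l2 was 7.0%, 6.8% and 6.8% in the KO libraries, against 5.6%, 6.5% and 6.3% in the WT libraries. None of these shares overlapped between the groups, while in TPM 42.8% of all tested genes did not overlap. How often such shares separate for other sets of genes was not computed. The sum that divides these shares is mostly Mcl1, which was highest in WT replicate 1. In TPM, Bcl2l1 overlapped through the replicates numbered 1, so its separation as a share depends on that sum. Without Mcl1 the anti-apoptotic sum was 0.0713, 0.0690 and 0.0675 times that of effectors and BH3-only genes in the KO libraries. In the WT libraries it was 0.0674, 0.0675 and 0.0664 times, so KO replicate 3 and WT replicate 2 were nearly equal.

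Ratios between single genes within a library do not depend on the library's scaling. These pairs were chosen after their values were seen and carry no test. Bcl2 over Bcl2l1 was 0.93, 0.56 and 0.63 in the KO libraries, against 1.04, 1.5 and 1.39 in the WT libraries. Bcl2l1 therefore exceeded Bcl2 in all 3 KO libraries and Bcl2 exceeded Bcl2l1 in all 3 WT libraries, with the replicates numbered 1 closest to each other. Mcl1 over Pmaip1, a survival protein's transcript over that of its BH3-only partner, was 2.11, 1.99 and 1.96 in the KO libraries, against 2.17, 2.38 and 2.33 in the WT libraries. The groups did not overlap, and WT replicate 1 lay nearest to KO. Bak1 over Bax overlapped, at 2.93 ± 0.06 in KO and 2.84 ± 0.10 in WT (SD, n = 3 each).

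**Figure D4:**
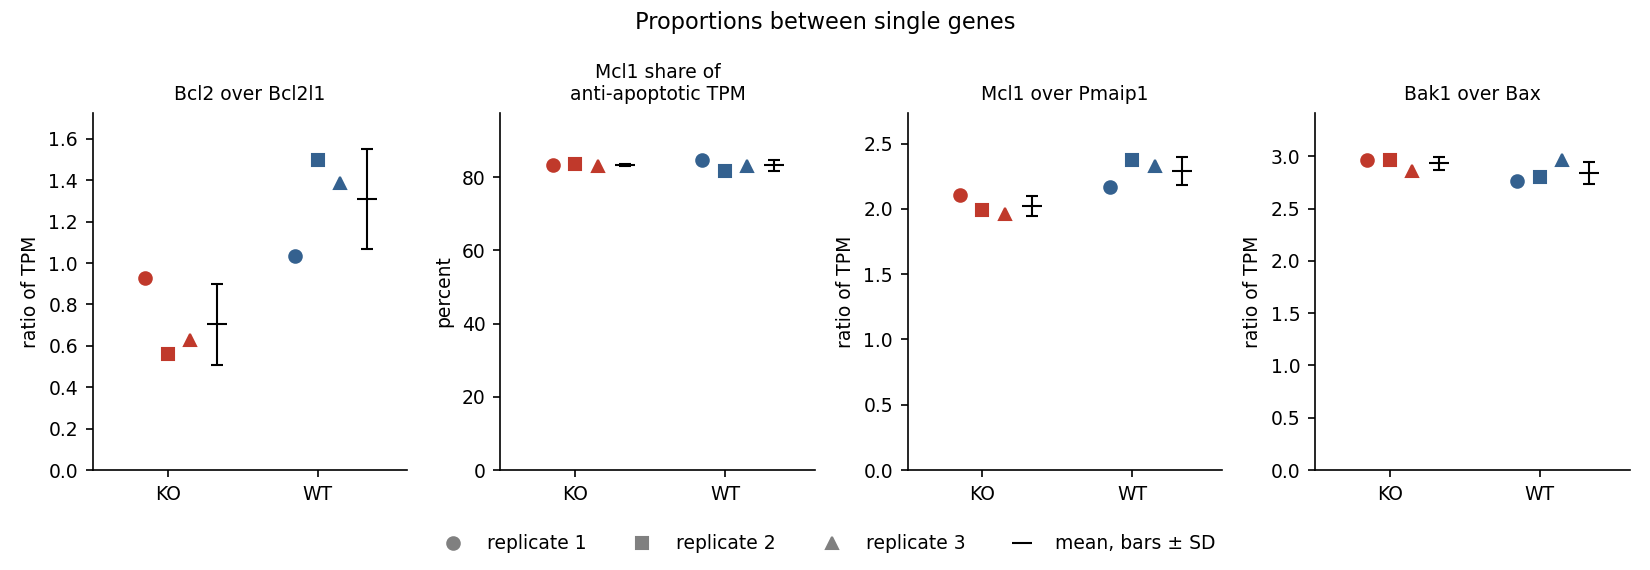
Ratios of TPM between single genes and the percent of anti-apoptotic TPM that is Mcl1 (vertical axes from 0) in each KO library (red, left) and WT library (blue, right), with mean ± SD of 3 libraries. Bcl2 over Bcl2l1 is below 1 in the KO libraries and above 1 in the WT libraries, and the Mcl1 share is near 83% in both groups.

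The rest of the family was examined from a list picked by role. Of its 15 genes, 10 were tested and 0 were called by limma, against 19.0% of all genes. Among these 10, 4 had an unadjusted p under 0.05, near the 38.0% of all genes: the BH3-only genes Bad and Bmf with log2 fold changes of 0.25 and 0.71, the survival gene Bcl2a1b with 0.25, and Bcl2l12 with -0.15 (limma adjusted p from 0.071 to 0.12). Bmf was at 1.5, 2.3 and 1.9 TPM in the KO libraries, against 1.6, 0.4 and 0.5 TPM in the WT libraries, and the groups overlapped through WT replicate 1 alone. Bad was at 77.3, 90.0 and 85.7 TPM in the KO libraries, against 76.4, 67.3 and 69.1 TPM in the WT libraries, and KO replicate 1 and WT replicate 1 lay next to each other without overlap. The survival genes Bcl2a1a, Bcl2a1b and Bcl2a1d, near-identical copies whose reads cannot be divided with certainty, summed to 24.8 ± 2.35 TPM in KO and 24.3 ± 1.89 TPM in WT (SD, n = 3 each). Bcl2l10, Bok, Bik, Hrk and Bcl2l15 failed the filter, and none of them exceeded 0.9 TPM in any library.

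Downstream of the mitochondrion, genes of the apoptosome, caspases and caspase inhibitors were called in both directions, 2 of 18 higher and 2 lower. That was 22.2% of the list, against 19.0% of all genes. The 2 that fell encode nucleases. Endog was at 48.7, 39.8 and 39.1 TPM in the KO libraries, against 57.2, 52.3 and 55.3 TPM in the WT libraries, and fell by 0.37 on the log2 scale (SE 0.09, limma adjusted p = 0.044). Dffb, which cleaves DNA once caspases free it from its inhibitor, was at 7.9, 7.1 and 6.5 TPM in the KO libraries, against 9.4, 9.5 and 9.3 TPM in the WT libraries, and fell by 0.35 (SE 0.08, adjusted p = 0.032). KO and WT did not overlap for either, as was so for 42.8% of all tested genes. Without WT replicate 1 the call was lost for Endog (adjusted p = 0.058) and held for Dffb (0.032).

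The death receptor pathway, through which ligands such as FASL engage Bid by way of caspase 8, had 0 of 8 genes called by limma, against 19.0% of all genes. Its median log2 fold change was 0.06. Unadjusted p-values under 0.05 were found for 5 of the 8, against 38.0% of all genes. Genes that control family members were called lower in 3 of 21 cases and higher in 0, against 6.11% and 12.9% of all genes. Pim1, a cytokine-induced kinase that phosphorylates BAD, averaged 554 ± 38.4 TPM in KO and 725 ± 76.8 TPM in WT (SD, n = 3 each) and fell by 0.38 on the log2 scale (limma adjusted p = 0.035). Myc fell by 0.47 (adjusted p = 0.024) and the stress factor Atf4 by 0.31 (adjusted p = 0.048). Of 10 tested p53 target genes outside the family, 30.0% were called, against 19.0% of all genes. The growth-restraining genes Btg2 and Trp53inp1 rose, by 0.77 and 0.96 (limma adjusted p = 0.011 and 0.030). Phlda3, whose product restrains AKT signalling, fell by 0.40 (adjusted p = 0.046). The call of Phlda3 was lost without any single library (adjusted p from 0.057 to 0.17), and that of Atf4 without WT replicate 1 (0.067). Without KO replicate 2, KO replicate 3, WT replicate 2 or WT replicate 3, the calls of Endog, Dffb, Pim1, Myc, Atf4 and Trp53inp1 were also lost (adjusted p from 0.066 to 0.17), while Btg2 held only without KO replicate 2 (0.048). Across these 5 lists 10 of 67 genes were called (14.9%), below the 19.0% of all genes, with a median log2 fold change of -0.04. The number was 20 without WT replicate 1 (29.9%, against 35.7% of all genes) and 36 without both replicates numbered 1 (53.7%, against 55.8%). It was 1, 0, 0 and 0 without KO replicate 2, KO replicate 3, WT replicate 2 and WT replicate 3, where under 1% of all genes were called.

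**Figure D5:**
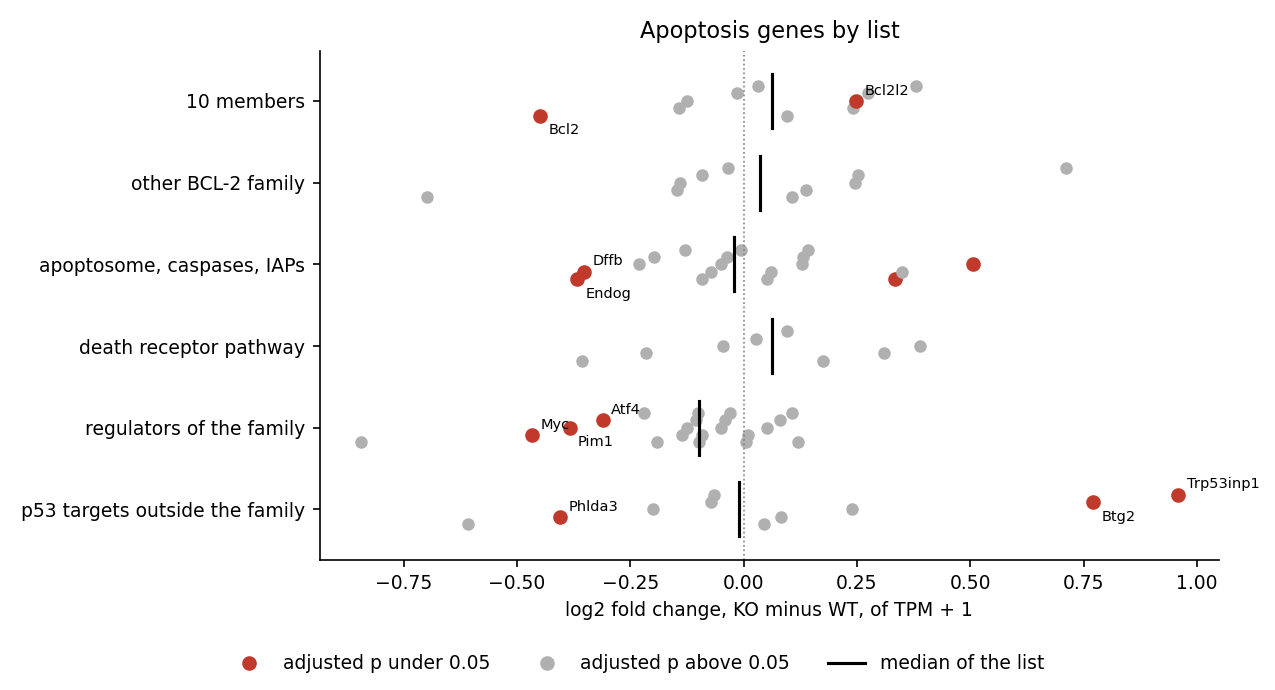
Log2 fold change, KO minus WT, of TPM + 1 (horizontal axis) for every tested gene of the 10 members and of 5 lists of related apoptosis genes (rows); red points have an adjusted p under 0.05, most of them named, and black bars are the lists' medians. The calls lie on both sides of 0, and the medians lie between -0.10 and 0.06.

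Genes inside and outside the pathway were searched for those with the pattern most like each called member over the 6 libraries. The measure was the root mean square difference of log2(TPM + 1), each gene centred on its own mean. How close such matches lie for other genes was not computed. For Bcl2, which varied by 0.26 about its mean, the closest were Ydjc, Srm and Polr3g, at differences of 0.03 each among 8913 genes searched. For Bcl2l2, which varied by 0.13, they were Zfp623, Mmd and Soat1, at differences of 0.02 each.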

How the data were processed

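Polyadenylated RNA of 6 libraries, 3 KO and 3 WT as their titles label them, was analysed from the authors' deposited TPM, 1 value for each of 35869 gene symbols, rounded to 1 decimal. The submitters' processing notes name the mm10 build and, as tools, featureCounts 1.6.2, STAR 2.6.1e, Trim Galore 0.4.2 and cutadapt 1.9.1. The sources used here do not state the annotation, the strand setting or how TPM was derived. Depth cannot be read from TPM and is unknown, although the labels' protocols give about 120 M paired reads of 100 bp. A rise of abundant transcripts lowers all other TPM in a library.

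The 13575 genes that reached 1 TPM in 3 or more libraries were tested with limma 3.58.1 in R 4.3.3 on log2(TPM + 1), with genotype as the only term, a mean-variance trend and two-sided tests, and called at 0.05 after Benjamini-Hochberg adjustment over all of them. No count model was used. The members, lists and tests were chosen with earlier results of these data known. Named genes were all members, Chaf1b, up to 4 called genes per list by adjusted p, family members that failed the filter, and the 3 genes most like each called member. Of these, 2 called genes of the lists are counted but not reported here by name. Other genes named singly (Bad, Bmf, Bcl2l12, Bcl2l13, the Bcl2a1 copies, Ggnbp1 and markers) were picked with their values in view. Positions came from RefSeq on GRCm38.p6, strands and exons from GENCODE M21. Alternatives were 3 other pseudocounts, 2 other filters, 2 normalizations, no trend, a replicate block and leaving out libraries. No 2 libraries shared the same TPM for more than 8.48% of tested genes, so all 6 counted singly.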

Additional observations from a re-analysis of the deposited data

How the results depend on the processing

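The 2 calls among the 10 members became 1 without the filter on low values, 1 under quantile normalization and 3 without the mean-variance trend. They ranged from 0 to 5 when a single library was left out. They numbered 7 without KO replicate 1 and WT replicate 1. The 10 calls among related apoptosis genes became 7 without the trend, 9 without the filter, 16 under quantile normalization and 36 without both libraries. They ranged from 0 to 20 when a single library was left out. Over all genes the 2575 calls became 1578 with a mean of at least 5 TPM and 7569 without both libraries, with a range of 0 to 4850. The 0 from limma was without KO replicate 3, where an unadjusted p lay under 0.05 for 3381 genes. With the replicate number as a block the counts were 0 of 10 members, 2 related genes and 333 genes. Same-numbered libraries deviated from their group means with correlations of -0.199, -0.145 and -0.164, and none correlated best with its own number, so the numbers were not taken as pairs. The log2 fold change of Bax turned to 0.0258 under quantile normalization and 0.0344 without both replicates numbered 1, and lay between -0.0512 and 0.0105 with a single library left out. That of Bcl2l11 turned to -0.0551 under quantile normalization. The anti-apoptotic balance, KO minus WT, turned to -0.00315 without WT replicate 2 and reached 0.0342 without WT replicate 1. The causes were not tested. The deposited TPM hold no depth, so counting error is unknown, and weak members rest on values of 1 decimal.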
